A study of Mus musculus with 108 samples.

Results

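Among single acinar cells from the mouse pancreas, 5 held Spp1, the gene of the secreted glycoprotein osteopontin, at 100 TPM or more, and 98 held it below 1 TPM. TPM is a read share corrected for transcript length, with a deposited total near 1000000 in most cells. In the 21 cells numbered 92 and above, 20 of them Spp1-negative, the total was lower, from 788380 to 990520. These 2 sets are called Spp1-high and Spp1-negative cells, and the 5 cells between the bounds, the only others in the series, were left out. Cells came from untreated male C57BL/6 mice aged 12 weeks, and all were labelled acinar. Their cDNA was made by a modified SMART-seq2 procedure, which amplifies whole transcripts from 1 cell without molecular identifiers. According to the labels' protocols the acini were dissociated into a suspension that still held clusters beside single cells. The study's title concerns differences among acinar cells of the adult gland. The labels name no animal, day or plate, so all cells counted as 1 sample, and neither p-values nor standard errors are given. An SD or a range describes the spread between cells.

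Acinar cells make and secrete digestive enzymes, and duct cells carry the juice away and add bicarbonate and water to it. Osteopontin is an acidic, phosphorylated protein that binds integrins and CD44, best known from bone and from kidney and other epithelial ducts, and in the pancreas it is used as a marker of duct cells. Tm4sf4 encodes a membrane protein of the L6 family, related to the tetraspanins, and is likewise found in epithelia of ducts and liver.

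The members were chosen by Spp1 alone, so its values are a description of the choice. Spp1 (chr5:104435118-104441050, plus strand, GRCm38) stood at 343.58 TPM in cell 15, 293.89 in cell 29, 293.72 in cell 40, 245.77 in cell 56 and 164.18 in cell 75. Of the Spp1-negative cells, 96 were listed at 0, cell 91 held 0.16 TPM and cell 43, just inside the lower bound, held 0.94 TPM. The left-out cells 39, 62, 30, 96 and 34 held 1.5, 2.38, 3.11, 3.47 and 6.14 TPM. No cell lay between 6.14 and 164.18 TPM.

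**Figure D1:**
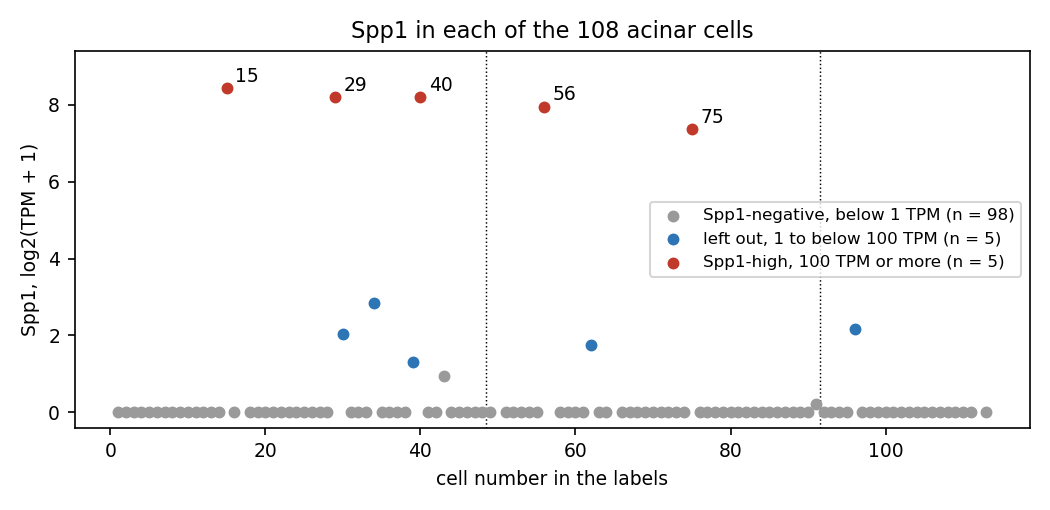
Spp1 in each cell as log2(TPM + 1) (vertical axis) against the cell number in the labels (horizontal axis), with 5 Spp1-high cells in red, 5 left-out cells in blue and 98 Spp1-negative cells in grey. Dotted lines mark the ends of the number ranges 1 to 48 and 49 to 91, and cells 15, 29, 40, 56 and 75 stand far above all others.

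The promoter sequences of Spp1, of Tm4sf4, the second marker, and of Apoe, the most abundant other gene that separated the sets, are shown because the 3 transcripts appeared in the same cells. They are RefSeq windows upstream of the annotated start on GRCm38.p6, printed in the direction of the gene. The Tm4sf4 window was cut where the GENCODE gene begins. Both strands were searched for motifs, and capitals mark the matches. In the Spp1 window these are the letters of a TATA box, TATAAA, beginning 211 bases before the RefSeq start, which itself lies 7 bases before the GENCODE start, and in the Apoe window a SOX-type site, spelled ACAATG, while the Tm4sf4 stretch held no match. An AP-1 site, searched as TGANTCA, had no match in the 3 windows, and neither had a forkhead site, for which the letters were TGTTTAC.
Spp1, chr5:104434861-104435110, plus strand: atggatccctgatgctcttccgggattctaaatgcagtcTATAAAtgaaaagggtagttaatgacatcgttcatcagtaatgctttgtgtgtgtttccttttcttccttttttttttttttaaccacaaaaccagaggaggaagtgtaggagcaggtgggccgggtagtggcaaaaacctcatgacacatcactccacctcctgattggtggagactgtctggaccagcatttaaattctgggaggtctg
Tm4sf4, chr3:57425160-57425313, plus strand: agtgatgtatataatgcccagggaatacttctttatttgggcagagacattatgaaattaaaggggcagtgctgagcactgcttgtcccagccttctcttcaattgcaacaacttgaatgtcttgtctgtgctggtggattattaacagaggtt
Apoe, chr7:19699189-19699438, minus strand: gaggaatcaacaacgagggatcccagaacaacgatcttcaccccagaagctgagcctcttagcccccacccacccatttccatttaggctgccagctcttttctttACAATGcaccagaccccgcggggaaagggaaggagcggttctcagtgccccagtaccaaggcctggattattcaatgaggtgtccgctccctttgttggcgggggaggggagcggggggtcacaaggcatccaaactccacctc
The TATA letters lay in 12.4% of all 32851 RefSeq windows of 250 bases, the SOX-type site in 10.7%, the AP-1 site in 6.75% and the forkhead site in 3.17%. The Tm4sf4 stretch shown has 154 bases and the other 2 have 250. A match of these letters is a description and does not show that a factor binds.

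Tm4sf4 (chr3:57425314-57441677, plus strand) was present in every Spp1-high cell. It stood at 15.44 TPM in cell 15, 21.67 in cell 29, 19.80 in cell 40, 9.03 in cell 56 and 11.73 in cell 75. In the Spp1-negative cells its median was 0 and its highest value 2.52 TPM. The sets did not overlap: 5 of 5 Spp1-high cells (100%, exact Clopper-Pearson 95% interval 47.8% to 100%) and 4 of 98 Spp1-negative cells (4.08%, interval 1.12% to 10.1%) held 1 TPM or more, the level called detected here. Such intervals cover counting error only. The mean was 15.5 ± 5.31 TPM (SD, n = 5 cells) against 0.124 ± 0.445 (n = 98), and the difference of mean log2(TPM + 1) was 3.87, or 3.78 without cell 40. Among the other L6 family genes, Tm4sf1 was detected in cell 40 alone, at 6.50 TPM, and Tm4sf5, Tm4sf19 and Tm4sf20 were listed at 0 in all cells compared.

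Apoe, which encodes the lipid carrier apolipoprotein E, was, after Spp1, the most abundant of the genes that separated the sets completely (chr7:19696109-19699188, minus strand). It stood at 66.65, 122.95, 105.03, 77.58 and 52.90 TPM in cells 15, 29, 40, 56 and 75. Among the Spp1-negative cells the median was 0 and the highest value 2.00 TPM, and 2 of 98 cells reached 1 TPM. The lowest Spp1-high cell thus lay far above the highest Spp1-negative one, and the difference of mean log2(TPM + 1) was 6.26 (6.17 without cell 40).

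A complete separation, with every Spp1-high cell above every Spp1-negative cell, was found for 39 of 19848 genes above 0 in any of these cells (0.196%), Spp1 included. In the opposite direction it was found for 0 genes (0%). This description was chosen after the values were seen. In 17 of the 39 genes (0.0857% of all) each Spp1-high cell held 1 TPM or more, and beside Spp1 these were Apoe, Tm4sf4, Anxa5, Epcam, Tstd1, Tmsb10, Sult1a1, Ambp, Cp, Tspan7, Atp1b1, Fmo2, Ccnd1, St3gal4, Hhex and Wfdc3. Without cell 40, 42 genes (0.212%) were separate, and leaving out each Spp1-high cell in turn gave 42 to 55. All 16 genes stayed separate in each of these 5 recounts, as they must when cells are only removed.

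**Figure D2:**
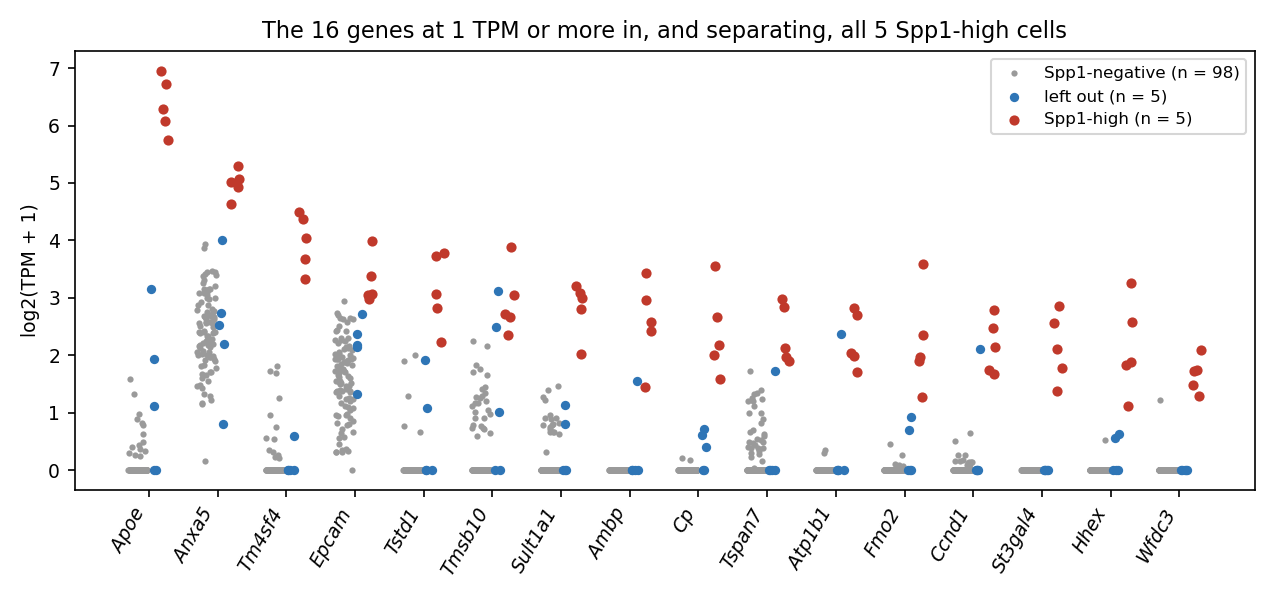
Expression as log2(TPM + 1) (vertical axis) of the 16 genes besides Spp1 that were at 1 TPM or more in all 5 Spp1-high cells (red) and lower in all 98 Spp1-negative cells (grey), with the 5 left-out cells in blue. Apoe shows the widest gap, from 52.90 TPM down to 2.00 TPM, and Epcam the narrowest of those also present in most Spp1-negative cells.

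Of these 16 genes, 12 were detected in under 10% of the Spp1-negative cells, and each Spp1-high cell held all 12. Among the Spp1-negative cells, 85 held none of the 12, 12 held 1 and 1 held 2. The choice of the genes fixes that each Spp1-high cell holds them all and that each is rare among Spp1-negative cells. Cell 34, the left-out cell highest in Spp1, held 5 of the 12, cell 30 held 2, cells 39 and 62 held 1 each, and cell 96 held 0. In cell 34 Apoe stood at 7.91 TPM, between the levels of the compared sets, and Atp1b1 at 4.18, Ccnd1 at 3.32 and Ambp at 1.94, within the range of the Spp1-high cells.

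Several of the 16 genes encode secreted or plasma-type proteins. Ambp, the precursor of alpha-1-microglobulin and bikunin, stood at 4.95, 6.82, 9.79, 1.74 and 4.37 TPM in cells 15, 29, 40, 56 and 75, and was listed at 0 in all 98 Spp1-negative cells. Cp, the copper-binding ferroxidase ceruloplasmin, stood at 3.03, 2.02, 10.74, 5.32 and 3.55 TPM against at most 0.16. Wfdc3, a gene of the whey acidic protein family, ranged from 1.45 to 3.27 TPM in the Spp1-high cells and reached 1.34 TPM in 1 Spp1-negative cell. A gene of the same family, Wfdc18, was at 0.92 to 13.11 TPM and listed at 0 in every Spp1-negative cell. Crp, encoding C-reactive protein, was at 1.24 to 2.11 TPM in cells 15, 29, 56 and 75 and listed at 0 in cell 40 and in all Spp1-negative cells. These transcripts were scarce in absolute level, apart from Apoe.

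Atp1b1, the beta subunit of the sodium-potassium pump, stood at 2.97, 5.55, 6.12, 2.27 and 3.14 TPM in cells 15, 29, 40, 56 and 75, and no Spp1-negative cell exceeded 0.28. Hhex, a homeobox factor of foregut, liver and pancreas development, ranged from 1.16 TPM (cell 29) to 8.55 TPM (cell 40) against at most 0.44. Ccnd1, the G1 cyclin D1, ranged from 2.19 to 5.93 TPM against at most 0.57. Sult1a1, a phenol sulfotransferase, ranged from 3.05 to 8.25 TPM against at most 1.76, and Fmo2, a flavin monooxygenase, from 1.42 to 11.11 TPM against at most 0.37. St3gal4, a sialyltransferase, ranged from 1.61 to 6.25 TPM and was listed at 0 in all Spp1-negative cells. For Cp, Atp1b1, Sult1a1, Tstd1 and Ccnd1 a second gene overlaps (Hps3, Nme7, Sgf29, Usf1 and LTO1), and the strand of the reads was not given in the sources used here, so reads of the overlapping pairs cannot be told apart.

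Among genes present in many acinar cells, Anxa5 and Epcam separated the sets by level rather than by presence. Anxa5, a phospholipid-binding annexin (chr3:36448923-36475894, minus strand), stood at 29.32, 38.30, 32.41, 31.56 and 23.96 TPM in cells 15, 29, 40, 56 and 75, and at a median of 4.32 (0.12 to 14.3) in the Spp1-negative cells. The difference of mean log2(TPM + 1) was 2.57, or 2.55 without cell 40. Epcam, an epithelial adhesion molecule (chr17:87635979-87651129, plus strand), stood at 9.44, 7.42, 14.96, 6.92 and 7.33 TPM against a median of 2.10 and a highest value of 6.71. Its sets nearly touched, and the difference was 1.73 (1.55 without cell 40). Tmsb10, an actin-binding thymosin, ranged from 4.10 to 13.73 TPM against a highest value of 3.73, and Tspan7, a tetraspanin, from 2.75 to 6.94 against 2.31. Unlike Anxa5 and Epcam, both had a Spp1-negative median of 0. Tmsb10 was detected in 18.4% and Tspan7 in 10.2% of the Spp1-negative cells, so these genes differed in presence too.

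For a count over genes, those at 1 TPM or more in at least 10% of the compared cells (11 cells) were kept, and a gene was called when the means of log2(TPM + 1) differed by 1 or more, that is 2-fold on that scale. Of 7128 kept genes, 135 were higher in the Spp1-high cells (1.89%) and 6 lower (0.0842%). Without cell 40 the numbers were 78 (1.09%) and 18 (0.253%), and 61 of the 135 and 5 of the 6 stayed. The median over all kept genes was 0.19, and 0.08 without cell 40, so the whole set leaned upward. With 5 Spp1-high cells, a gene confined to them could not pass the filter, and Spp1, Tm4sf4 and Apoe were not kept. Other genes passed it only through the Spp1-high cells. Tspan7 and Gmnn were each detected in 10 Spp1-negative cells, under the 11 needed, and in all 5 Spp1-high cells. How many of the 135 higher genes passed in this way was not counted, so their number is not independent of the choice of cells. Of all separate genes only Anxa5, Epcam, Tmsb10 and Tspan7 were kept, 4 of 7128 (0.0561%).

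Cell 40 stood apart from the other Spp1-high cells. It held 6946 genes at 1 TPM or more, against 4132, 4622, 4365 and 4710 in cells 15, 29, 56 and 75 and 2624 to 5201 (median 4137.5) in the Spp1-negative cells. It was the highest of the 5 for 3651 of the 7128 kept genes, and for 96 of the 135 higher genes. Scaling without the digestive enzymes left 75 higher genes, and 36 were left when each gene's dependence on the genes detected per cell was first removed by a line. How far the number of genes detected takes part in the differences was not tested beyond these recounts.

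The digestive enzymes, which define the acinar cell, filled most of the transcriptome in both sets. As a share of each cell's deposited total the list took 82.4%, 88.6%, 82.5%, 87.3% and 88.5% in cells 15, 29, 40, 56 and 75, and 74% to 92% (median 88%) in the Spp1-negative cells. Every Spp1-high cell lay within the range of the others, and 37 of the 38 measured list genes were detected in each of the 5. Of 37 kept members 0 were higher and 0 lower by the rule, and the median difference was 0.00 (0.02 without cell 40), against -0.20 when cells were scaled without these enzymes. Prss2, anionic trypsinogen, stood at 86629 to 117161 TPM in the Spp1-high cells and at a median of 101000 in the others. Ctrb1, a chymotrypsinogen, stood at 72488 to 109053 against a median of 97900 TPM. Prss3, a trypsinogen with near-identical relatives among which reads are uncertain, differed by 0.71, or by 1.22 without cell 40.

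Acinar transcription factors were present as well. Ptf1a, the factor that drives enzyme genes, stood at 3.43, 12.73, 12.08, 4.18 and 21.40 TPM in cells 15, 29, 40, 56 and 75 against a median of 10.8 (1.71 to 43.2). Bhlha15 (Mist1), a factor of secretory cell architecture, stood at 3.05 TPM in cell 15, below the lowest Spp1-negative cell at 3.25, and at 8.83 to 15.59 in the other 4. Rbpjl, a partner of Ptf1a, ranged from 23.22 to 35.31 TPM against a median of 34.1, and Xbp1, a factor of the secretory pathway, from 34.18 to 68.42 against 58.4. Of 15 kept members of the list 0 passed the rule, with a median difference of -0.14 (-0.27 without cell 40). The median over all kept genes was 0.19 (0.08 without cell 40). Of the 15 differences 4 were above 0, but the share above 0 among all kept genes was not counted.

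**Figure D3:**
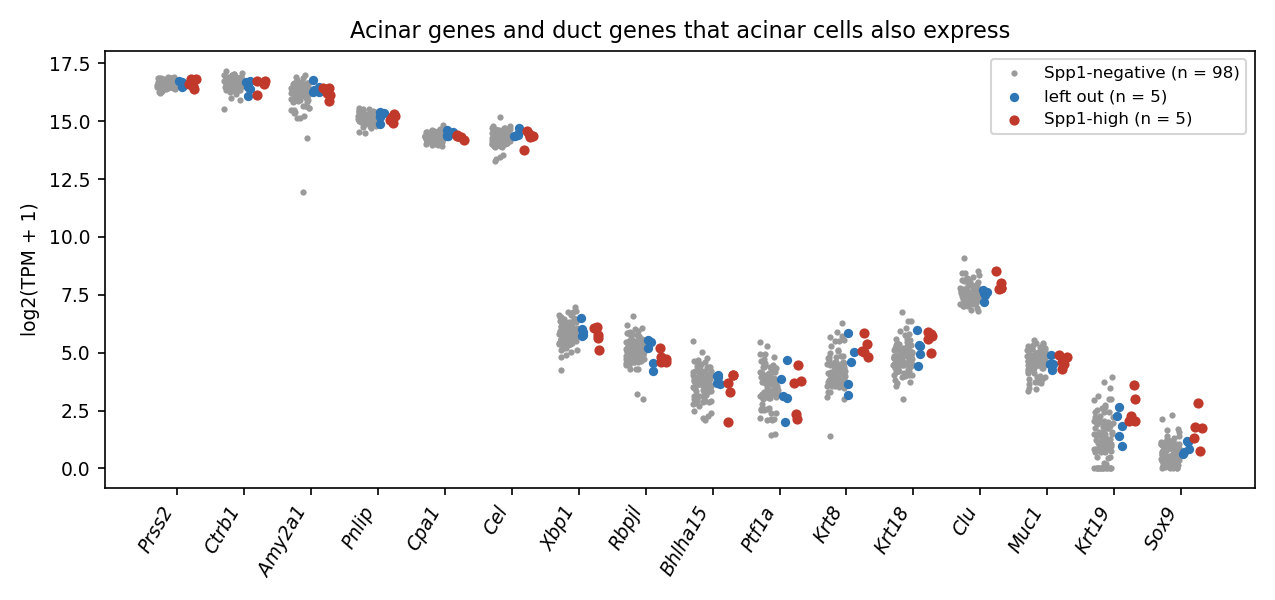
Expression as log2(TPM + 1) (vertical axis) of digestive enzymes and acinar transcription factors (Prss2 to Ptf1a) and of duct list genes that acinar cells also express (Krt8 to Sox9), in 98 Spp1-negative (grey), 5 left-out (blue) and 5 Spp1-high cells (red). The enzymes and factors overlap between the sets, apart from Bhlha15 in cell 15, and so do the duct list genes shown.

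More genes of the duct list were detected in each Spp1-high cell than in any Spp1-negative cell, but this rested on members that separate the sets by themselves. Of 40 duct list genes, Spp1 not among them, cells 15, 29, 40, 56 and 75 held 24, 24, 30, 21 and 22 at 1 TPM or more. The Spp1-negative cells held 8 to 17, with a median of 12, and 0 of the 98 reached the lowest Spp1-high cell. Tm4sf4, Ambp, Atp1b1, Tstd1 and Cp on this list belong to the 12 rare separate genes above. They therefore count in every Spp1-high cell and in few Spp1-negative cells. Spp1-negative cells 51 and 70 held 17 duct list genes and 0 of those 12, so without the genes named the counts of the sets would overlap. The left-out cells held 12 to 20, the highest being cell 34. The number of genes detected overall did not separate the sets in the same way, since 50 of the 98 Spp1-negative cells had as many genes as cell 15 or more.

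**Figure D4:**
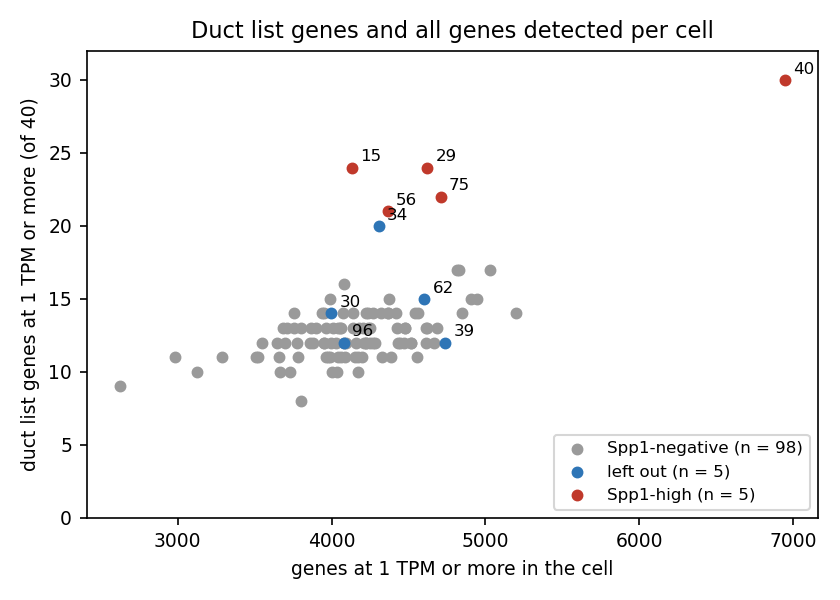
Duct list genes at 1 TPM or more, of 40 (vertical axis), against all genes at 1 TPM or more (horizontal axis), 1 point per cell, with the numbers of Spp1-high (red) and left-out (blue) cells given. The 5 Spp1-high cells lie between 21 and 30 duct genes, above the Spp1-negative cells (grey) at 8 to 17, and cell 40 also lies far to the right. The list includes Tm4sf4, Ambp, Atp1b1, Tstd1 and Cp, which separate the sets by themselves, and without them the counts would overlap.

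Of the 40 genes, 17 were kept, 6 of these were higher by the rule (Anxa5, Epcam, Krt19, Sox9, Krt8 and Sorbs2), and 0 were lower. Over all kept genes 1.89% were higher and 0.0842% lower. Of the 17 differences 16 were above 0, but the share above 0 among all kept genes was not counted. The median was 0.91, against 0.19 over all kept genes. Without cell 40 only Anxa5 and Epcam passed, where 1.09% of all kept genes were higher, and the median was 0.69 against 0.08. It was 1.13 within cells 1 to 48, which include cell 40, and 0.51 within cells 49 to 91. The list held 8 of the 39 separate genes: Epcam, Tm4sf4, Ambp, Dcdc2a, Anxa5, Atp1b1, Tstd1 and Cp. The list was drawn up with earlier results of these data known, so its count is not independent evidence of a direction.

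Keratins and adhesion genes were mostly shared by all acinar cells. Krt19, the keratin most used to mark ducts, stood at 3.09, 3.81, 11, 6.95 and 3.20 TPM in cells 15, 29, 40, 56 and 75, and at a median of 1.60 with a highest value of 14.7 in the Spp1-negative cells. The sets overlapped, with 22 Spp1-negative cells at or above cell 15, and the difference was 1.21 (0.96 without cell 40). Krt8 ranged from 26.81 to 57.52 TPM against a median of 16.7 and a highest value of 76.5, with a difference of 1.01 (0.85 without cell 40). Krt18, its partner, differed by 0.77. Krt7, a duct keratin in many epithelia, stayed below 1 TPM in every Spp1-high cell. The tight junction genes Cldn7 and Cldn10 differed by 0.82 and 0.47.

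The duct transcription factors were low in both sets. Sox9, which marks duct and progenitor cells, stood at 1.51, 2.39, 6.14, 2.51 and 0.67 TPM in cells 15, 29, 40, 56 and 75, against a median of 0.515 and a highest value of 3.93. The overlap was wide, with 40 Spp1-negative cells at or above cell 75, and the difference was 1.03 (0.74 without cell 40). Onecut1 was at 0.25 to 0.81 TPM in 4 of the cells and at 2.72 in cell 40. Elf3 differed by 0.08, and Ehf by 0.91.

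Genes of ductal ion and water transport were low or not detected, with few exceptions. Cftr, the chloride channel that defines bicarbonate-secreting ducts, was at 0.66 TPM in cell 56 and at most 0.09 in the other 4, and Slc4a4, the sodium bicarbonate cotransporter, at most 0.34. Car2, a carbonic anhydrase, reached 2.49 TPM in cell 15 and at most 0.88 in the rest, while the highest Spp1-negative value within cells 49 to 91 was 2.93 TPM. Aqp1, a water channel of ducts and endothelium, was listed at 0 in 4 cells and stood at 14.03 TPM in cell 40. Slc12a2, the sodium-potassium-chloride cotransporter, was at 0.10 to 0.59 TPM in the Spp1-high cells against a median of 0.325. Atp1b1, given above, was the member of this kind detected in all 5.

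Other duct list genes varied. Bicc1 and Pkhd1 were low outside cell 40. They reached 2.81 and 5.48 TPM in cell 40, while among the other 4 cells Pkhd1 passed 1 TPM in cell 29 alone, at 1.23, and Bicc1 in none. Dcdc2a, a ciliary doublecortin gene, ranged from 0.43 TPM (cell 15) to 3.19 (cell 29) against at most 0.24. Wfdc15b stood at 1.23, 3.27, 12.56, 2.07 and 15.30 TPM in cells 15, 29, 40, 56 and 75 and reached 1 TPM in 1 Spp1-negative cell, at 3.25. Tstd1, a sulfurtransferase, ranged from 3.69 to 12.75 TPM against at most 3.00. Clu, Muc1, Cd24a and Prom1, which nearly all acinar cells express, differed by 0.40, -0.03, 0.31 and 0.34. Mmp7, S100a6 and Onecut2 were listed at 0 in all cells compared, and Tspan8 stayed below 1 TPM in all of them.

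The largest differences among kept genes with the gene detected in at least 3 of the Spp1-high cells followed a rule of size. S100a11, a calcium-binding protein, stood at 13.31, 6.17, 52.34, 13.02 and 4.79 TPM in cells 15, 29, 40, 56 and 75 against a median of 0 and a highest value of 9.56, a difference of 3.09 (2.60 without cell 40). Mgst1, a microsomal glutathione transferase, stood at 19.84, 8.31, 20.27, 10.36 and 5.66 TPM against a median of 0.285, a difference of 2.98. Ces1d, a carboxylesterase, stood at 25.35, 13.36, 18.91, 10.02 and 8.78 TPM against a median of 1.40, a difference of 2.76. For Mgst1 4 Spp1-negative cells, and for Ces1d 1, lay at or above the lowest Spp1-high cell, so that the overlap was small. Both differences were close to these values without cell 40, at 2.79 and 2.66.

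After Tmsb10 and Anxa5 came Pdzk1ip1 (2.16), Tspan7 (2.12), Tmem176a (2.12) and Gmnn (2.02), an inhibitor of DNA replication licensing. Tspan7 and Gmnn were kept only through the Spp1-high cells, as given above. The small RNA gene Snord118 (2.00) was listed at 0 in cell 75, and the U2 small nuclear RNA copies Gm23849, Gm24950, Gm23971 and Rnu2-10 carried identical values (1.96 each), so they are 1 measurement. Then followed Ier3 (1.79), an early response gene, Eno1 (1.76), the glycolytic enolase, Epcam, Gas6 (1.70), a secreted ligand of TAM receptors, Cyba (1.69), a subunit of NADPH oxidase, and Fads2 (1.65), a fatty acid desaturase. Eno1 stood at 10.16 to 27.68 TPM against a median of 4.33, with 3 Spp1-negative cells at or above the lowest of the 5. Without cell 40 Ier3 was at 1.14, Snord118 at 1.29 and the U2 copies at 1.40, and all 20 of these genes still passed the rule.

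Few genes were lower. Gm10288 stood at 3.28, 5.17, 9.88, 0 and 0 TPM in cells 15, 29, 40, 56 and 75 against a median of 18.1, a difference of -2.15 (-2.60 without cell 40). Gm10443 (-1.63), 1810007D17Rik (-1.27), Gm21738 (-1.23) and Gm9830 (-1.14) also passed, but Gm10443 was at -0.97 without cell 40 and then did not. Most of these 5 are predicted or pseudogene models whose reads can be shared with near-identical copies, and for Gm10443 the 5 cells were split between 95.22 and 91.62 TPM in cells 15 and 56 and 0 in the rest. Snhg17, Rps16-ps2, Ctrcos, Angptl8 and Gm12338 did not pass, at -0.94, -0.87, -0.87, -0.73 and -0.98. Gm12338 was at 0.02 without cell 40.

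The partners of osteopontin were weakly expressed. Of 24 measured genes of its receptors, processing enzymes and relatives, 16 stayed below 1 TPM in all cells compared, among them the integrin chains Itgb3, Itgb8, Itga4, Itga5, Itga8 and Itga9 and the related secreted phosphoproteins Ibsp, Dmp1, Dspp and Mepe. The 4 kept members were Itgb1, Itgav, Fam20c and Tgm2, of which 0 passed, with a median of 0.41 (0.33 without cell 40). All kept genes had a median of 0.19 (0.08 without cell 40). Itgav, the alpha V integrin chain, stood at 0, 1.28, 1.10, 0.51 and 3.53 TPM in cells 15, 29, 40, 56 and 75 against a median of 0.10. Itgb1, the beta 1 chain, ranged from 0.93 to 2.75 TPM against a median of 1.69. Fam20c, the kinase that phosphorylates secreted proteins, differed by 0.27, and Tgm2, a transglutaminase that crosslinks osteopontin, by 0.86. Cd44, a receptor, was below 1 TPM in all 5 cells. The nearest protein-coding neighbours of Spp1 on chromosome 5 did not follow it: Mepe was listed at 0 in every cell compared, and Pkd2 stood at no more than 0.37 TPM in the Spp1-high cells.

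Injury, progenitor and signalling lists were higher in part. Of all kept genes 1.89% were higher by the rule (1.09% without cell 40), and their median difference was 0.19 (0.08 without it). Of 9 kept genes of acinar-to-ductal metaplasia and injury, S100a11, Krt19 and Sox9 passed, 2 of which the duct list shares, with a median of 0.76 (0.74 without cell 40, when S100a11 alone passed). Tff2, a trefoil peptide on that list, ranged from 2023 to 2541 TPM against a median of 2240. Of 8 kept progenitor genes, Stmn1 and Sox9 passed, and 0 without cell 40. The 4 kept Notch and Hippo genes had a median of 0.64, with 0 past the rule. Hes1, a Notch target, stood at 9.61 TPM in cell 40 and 0.38 to 1.72 in the rest. Of 7 kept Reg and acute-phase genes only Reg2 passed, at 158.34, 1.14, 155.04, 1579.61 and 1033.28 TPM in cells 15, 29, 40, 56 and 75. Its Spp1-negative median was 15.4 TPM in cells 1 to 48 and 932 in cells 49 to 91, and within these ranges its differences were 1.18 and 0.66.

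Proliferation genes depended on cell 40. Of 7 kept members 4 passed, Cks2, Tyms, Stmn1 and Rrm2, and the median was 1.02, but without cell 40 none passed and the median was 0.05. Among all kept genes 1.89% were higher, with a median of 0.19, and 1.09% without cell 40, with a median of 0.08. Cell 40 detected 37 of 38 list genes, and cells 15, 29, 56 and 75 detected 7, 3, 3 and 4. The Spp1-negative cells detected 1 to 30, with a median of 3. Mki67, the proliferation antigen Ki-67, stood at 9.57 TPM in cell 40 and at 0 in the other 4. Stmn1, encoding stathmin, stood at 108.72 TPM in cell 40 and at 0 to 1.16 in the others, Pcna, the DNA clamp, at 92.13 against 0.46 to 3.03. Ccnd1, in contrast, was in all 5 cells, as given above.

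Immediate-early and heat shock genes also leaned on cell 40. Their 24 kept members had a median of 0.43, and -0.08 without it. Egr1 and Ier3 passed, and Fos, an immediate-early factor, stood at 263.81 TPM in cell 40 and 9.07 to 31.78 in the rest. Of 10 kept interferon and MHC class I genes, Irf1 and B2m passed, with a median of 0.47, and none without cell 40 (0.21). For both lists the figures over all kept genes are 1.89% higher with a median of 0.19, and 1.09% and 0.08 without cell 40. B2m, the light chain of MHC class I, stood at 17.61, 4.76, 51.95, 4.55 and 14.96 TPM in cells 15, 29, 40, 56 and 75 against a median of 6.52.

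Housekeeping and secretory lists lay near or below the median of all kept genes. The 28 kept ER chaperone genes had a median of 0.08 with 0 past the rule (Chac1 at -0.67, and at -1.03 without cell 40). The 44 ribosomal protein genes were at 0.03, the 14 cholesterol genes at 0.09, and the 15 adhesion and junction genes at 0.25, each with 0 past the rule. Cdh1, encoding E-cadherin, differed by 0.89 and Cldn3, a claudin, by 0.74.

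**Figure D5:**
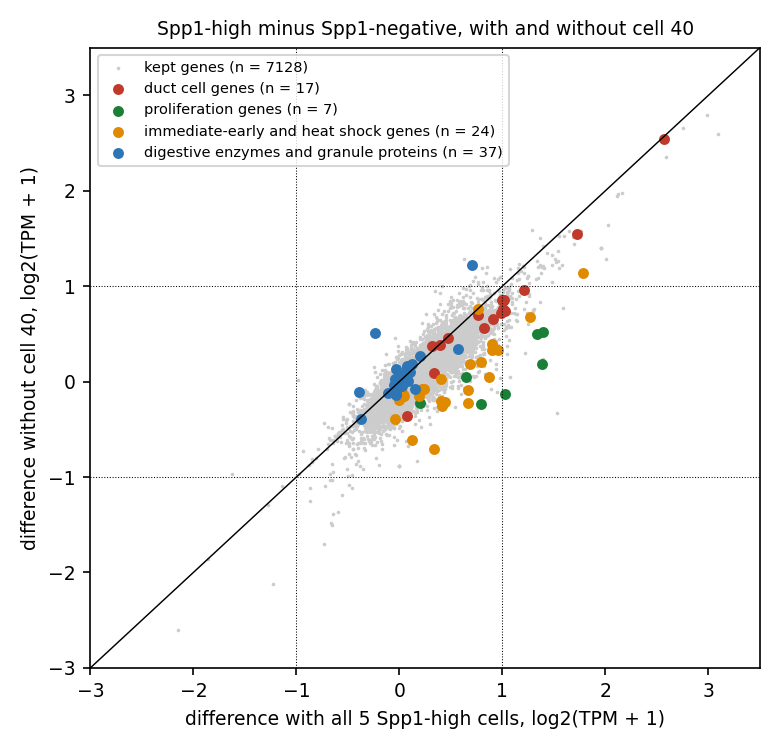
Difference of mean log2(TPM + 1), Spp1-high minus Spp1-negative, for 7128 kept genes with all 5 Spp1-high cells (horizontal axis) and without cell 40 (vertical axis), with duct, proliferation, immediate-early and enzyme list members coloured. The line marks equal values and dotted lines mark 1 and -1; the 7 proliferation genes fall below the line, and Anxa5 and Epcam stay near it.

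Markers of other cell types were looked for in the same cells. Endothelial markers (12 measured) were detected in cell 40 only among the 5, where 9 were present and summed to 85.4 TPM, with Plvap at 25.40, Egfl7 at 22.69 and Pecam1 at 11.49, while Cldn5 was listed at 0. In the other 4 cells the sum was 0 to 0.12 TPM, and the Spp1-negative cells summed to 2.80 at most. Fabp4, from the adipocyte list, stood at 51.44 TPM in cell 40 and 0 in the rest. Stellate cell and fibroblast markers summed to 29 TPM in cell 40 and 1.56 to 5.14 in the other 4, and at most 2.57 in the Spp1-negative cells. Sparc, an extracellular matrix glycoprotein of that list, stood at 0.79, 4.29, 13, 3.09 and 2.30 TPM in cells 15, 29, 40, 56 and 75. The highest Spp1-negative cell held 2.57. Vim, also of that list, had a mean log2(TPM + 1) of 1.24 in the Spp1-high cells among cells 1 to 48, which include cell 40. Among cells 49 to 91 it was 0.80, and the Spp1-negative cells of both ranges were listed at 0 for Vim. Rgs5 and Des were above 0 in Spp1-high cells among cells 1 to 48 only. Col1a1, Pdgfra, Dcn and Acta2 were listed at 0 in all 5. Igfbp7, a secreted binding protein of endothelium and other cells, stood at 64.75 TPM in cell 40 and 0.86 to 2.42 in the other 4. Its highest Spp1-negative value was 0.19 TPM within cells 1 to 48 and 0 within cells 49 to 91, so it was not particular to cell 40. The part of other cells in the results of cell 40 was not tested.

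Endocrine, blood and macrophage markers were nearly missing. Ins2, the insulin gene, was the sole endocrine marker detected, at 5.07 TPM in cell 56, and Gcg, Sst and Chga were listed at 0 in the 5 cells. Lymphocyte, erythrocyte and neural markers were detected in 0 of the 5. Of the macrophage list, Csf1r reached 1.68 TPM in cell 40, and Adgre1, Lyz2 and Ptprc were listed at 0 in all cells compared.

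By cell number, cells 1 to 48 held 3 Spp1-high and 41 Spp1-negative cells, cells 49 to 91 held 2 and 37, and cells numbered 92 and above held 0 and 20. Within the first and the second range the difference was 4.19 and 3.39 for Tm4sf4, 6.47 and 5.88 for Apoe, 2.63 and 2.48 for Anxa5, 1.94 and 1.47 for Epcam and 3.39 and 2.4 for S100a11. Krt19 differed by 1.33 and 0.97 and Sox9 by 1.24 and 0.61, so that in the second range, with 2 Spp1-high cells, these duct genes were under the rule. Cell 40 lies in the first range, so the ranges also differ in whether they hold it. Over all ranges without cell 40, Krt19 differed by 0.96 and Sox9 by 0.74. The range cannot be told apart from animal or day, which the labels do not name.

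All 5342 genes detected in at least 25% of all cells of the series were ranked by Spearman correlation with Spp1. The values were 0.35 at most, and 12 cells held Spp1 above 0. Apoe, Tm4sf4 and the other rare separate genes were detected in too few cells to enter this ranking. Its upper limit therefore holds for widely detected genes only. The highest were Bcl10 (0.35), Timm50, Tnfaip8 and Chmp2b (0.33 each) and Lasp1, Rps4l, BC005624 and Epcam (0.32 each). The lowest were Gm10288 (-0.29), Polr2l (-0.27), Stc2 (-0.25) and Ctrcos (-0.23). The values are a description only, and 96 of the Spp1-negative cells share a value of 0 for Spp1.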

How the data were processed

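The deposited table held TPM for 45195 Ensembl gene rows in 108 cells, of which 103 were compared. The values, written with 2 decimals, sum to about 1000000 in most cells, from which the unit was read. Per the submitters' processing notes, which give neither roles nor order, STAR 2.4.2a, RSEM 1.2.21, edgeR and mm10 are listed. How strand was treated is not given in the sources used here. The depth in reads is unknown, because TPM keep none, and no interval on a TPM value is given. Rows were matched to symbols for 44548 genes. No cell was left out for quality, and no doublet caller was run.

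From the deposited TPM, differences of mean log2(TPM + 1) were computed with Python 3.11.15, numpy 2.4.6 and pandas 2.3.3, and a difference of 1 or more counted. No test was used, since cells of 1 sample are not replicates. Shares of cells carry Clopper-Pearson 95% intervals (scipy 1.17.1). For a count of 0 of 98 cells the upper limit is 3.69%. Coordinates are from GENCODE M21 on GRCm38, promoters from RefSeq on GRCm38.p6. The code that computes the differences was checked on simulated data.

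Named genes are Spp1 and Tm4sf4, the 20 largest positive and 10 largest negative differences among kept genes detected in most cells of the set in which they are higher, the kept duct and osteopontin list members, up to 4 kept members of other lists, the extreme correlations with Spp1, its neighbours, and Stmn1 and Mki67. Any other gene was picked with its values in view. The cells and gene lists were chosen with earlier results of these data known. Alternatives changed the Spp1 bounds, pseudocount, scaling, filter, size, summary and cells. The values of 1 duct list gene are not reported here.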

Additional observations from a re-analysis of the deposited data

Results flagged for a closer look

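Over the 5 Spp1-high cells, 58 values were compared by the gap of the extreme cell to its nearest neighbour as a share of the range. Of these, 13 exceeded Dixon's 95% value, where chance flags about 1 in 20 of independent, normally distributed values. The values here share cells and genes, and some are 0 or near 0 in most of the cells, so the 13 cannot be set against that rate. In 11 of the 13 cell 40 was the cell apart. It held 6946 genes detected, against 4710 in the next cell. Its summed TPM was 29.4 for Notch and Hippo genes (next 8.70), 183 for progenitor genes (67), 1650 for immediate-early and heat shock genes (289), 1170 for proliferation genes (74), 29 for stellate and fibroblast markers (5.14), 85.4 for endothelial markers (0.12) and 51.4 for adipocyte markers (0). S100a11 stood at 52.34 TPM (next 13.31), Ier3 at 27.44 (6.91) and Gas6 at 10.16 (4.48) in that cell. Cell 56 was apart for endocrine markers, at 5.07 TPM in sum (next 0.96), and for Fmo2, at 11.11 TPM (4.11).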

How the results depend on the processing

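The count of genes higher in Spp1-high cells was 135 and that of lower genes 6. These counts changed, together or singly, with most settings. They were 78 and 18 without cell 40, and 202 and 11 with 200 TPM as the bound of Spp1-high. A pseudocount of 0.1 gave 1247 and 92, and a pseudocount of 10 gave 8 and 1. Scaled without the digestive enzymes they were 75 and 8, and with median-of-ratios size factors 76 and 8. Residuals on genes detected gave 36 and 19, and medians in place of means gave 258 and 16. Cells 1 to 48 alone gave 351 and 15, and cells 49 to 91 alone gave 170 and 47. With no filter they were 227 and 6, the count of lower genes being unchanged. At a size of 0.58 they were 855 and 45. Leaving out each of the other Spp1-high cells gave 202 to 228 higher and 7 to 12 lower genes. The separate genes, 0.196% of all, made up 0.529% within cells 1 to 48 and 0.635% within cells 49 to 91, where fewer cells had to be exceeded. Of 285 recomputed list medians, 22 moved by more than the spread between cells. The proliferation median was 0.05 without cell 40, 0.32 with medians, 1.76 in cells 1 to 48 and 0.08 in cells 49 to 91. The duct median was 0.25 with a pseudocount of 10, 0.41 as residuals and 0.51 in cells 49 to 91. Metaplasia and injury genes were at 1.18 and 0.20 with pseudocounts of 0.1 and 10, 0.26 as residuals and 0.22 without the filter, and Notch and Hippo genes at 1.28, 0.14, 0.21 and 0.11. With a pseudocount of 0.1 osteopontin partners were at 1.24 and cholesterol genes at 0.52. Digestive enzymes were at -0.20 scaled without themselves and -0.19 with size factors. As residuals acinar factors were at -0.45, interferon genes at 0.07 and adhesion genes at -0.05. The median of all kept genes was 0.08 under both scalings, -0.04 as residuals and 0.40 with a pseudocount of 0.1, against 0.19. Spp1-high cells had 484.5 more genes detected in the median, 356 without cell 40, 110 at a detection level of 5 TPM and 1236 when detection meant above 0 TPM. Among values of 115 named genes in 13 settings, 1404 of 1495 moved by less than the spread between cells. Rrm2 reversed, at -0.12 without cell 40 and -0.14 in cells 49 to 91. The cause of these changes was not tested. Cells numbered 92 and above gave no value, as they held 0 Spp1-high cells, and a mean over ranges with 3 or more cells of each set equals cells 1 to 48 alone. With 50 TPM as the bound the same 5 cells were chosen. Read depth is unknown, and 5 cells limit every mean. No paired analysis was possible because all cells form 1 labelled group.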
